A study of Mus musculus with 4 samples.

Results

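Keratin and keratin-associated protein genes were taken as all autosomal genes whose name on the array starts with Krt and a digit, or with Krtap, and whose spots are not controls. This rule found 72 genes, 45 Krt and 27 Krtap, of 20445 autosomal genes, carried by 97 of 52385 autosomal probes. Of the 72 genes, 59 had 1 probe and 13 had more, and all 27 Krtap genes had 1 probe. Keratins build the intermediate filaments of epithelial cells as obligate pairs of an acidic type I and a basic type II protein, and each type has a gene cluster of its own. Krt8 and Krt18 form the filaments of hepatocytes, and bile duct cells add Krt7 and Krt19. The other keratins serve mainly the epidermis, the mucosa, the hair follicle and the hair, and the small keratin-associated proteins cross-link the keratins of the hair shaft.

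The labelled molecule was genomic DNA: each value is the log2 ratio of a gene's hybridisation signal in a liver sample over that in a reference pool, and RNA was not measured. Liver cells of mice gave 4 samples, whose DNA came from formalin-fixed, paraffin-embedded sections and carried the dye Cy5. On each of 4 arrays it competed with a Cy3-labelled pool made from the DNA of 4 normal livers. All 4 samples carry the same genotype, given in the labels as TAK1LPC-KO_RIP3-_-, that is, TAK1-deficient liver parenchymal cells combined with a Rip3 knockout; TAK1 is a kinase of inflammatory and survival signalling and Rip3 a kinase of necroptosis. There is thus 1 group, its control is the pool alone, and a normal liver's own spread is not measured. Age, sex, the promoter that drives the deletion and the strain of the pool are not given in the sources used here, and the labels do not state whether each sample is its own animal, so p-values cover the spread between these samples only, which may be technical.

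Ratios were centred on each array's autosomal median, so that 0 is the level of the typical autosomal probe. A probe counts as well above background when the scanner software flagged it so. This held for 84.3% to 89.9% of probes in the sample channel and for 94.4% to 97.7% in the pool channel. Among the keratin probes, 84 of 97 (86.6%) were well above background in both channels on all 4 arrays, against 82.0% of autosomal probes. Precision is limited by having 4 arrays. Markers of hepatocytes, fixed as a list of 10 genes, carried DNA ratios well away from 0, with 8 of 10 higher than the pool and a median of 1.13 (range 0.05 to 5.36), where 16.1% of all autosomal genes were higher and 19.3% lower. Of 7 bile duct genes 1 was higher and 3 were lower, namely Krt7, itself a keratin, and Spp1 and Cldn7, whose single probes were not well above background on every array. Whether the hepatocyte ratios follow DNA dose, and whether they bear on the keratin ratios, was not tested.

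The probes on which the liver keratins rest are shown first, since 3 of these 4 genes are read by a single probe. All sequences run 5′ to 3′ as the files list them, on build mm9, with the strand not given in the sources used here, and capitals mark runs of at least 4 G or C bases.
Krt8: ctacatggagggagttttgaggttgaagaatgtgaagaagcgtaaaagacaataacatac
Krt18: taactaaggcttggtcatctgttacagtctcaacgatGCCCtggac
Krt19: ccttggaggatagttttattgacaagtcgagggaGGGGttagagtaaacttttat
Krt7, first probe: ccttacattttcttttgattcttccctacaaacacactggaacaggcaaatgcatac
Krt7, second probe: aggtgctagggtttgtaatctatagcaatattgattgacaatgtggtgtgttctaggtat
The Krt8 probe lies at chr15:101827790-101827849 and the Krt18 probe at chr15:101862245-101862290. The Krt19 probe lies at chr11:100002130-100002184. The Krt7 probes lie at chr15:101245904-101245960 and chr15:101253019-101253078. The Krt18 probe holds 47.8% G and C bases, the upper end of the 97 keratin probes, whose median is 36.7%. Exon and intron positions on mm9, and matches of a probe to a related keratin gene, were not examined here.

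Of the 4 liver keratins, Krt7 was lower than the pool and the other three did not pass the test. Past the threshold here means a limma adjusted p below 0.05, adjusted over all autosomal genes, together with a mean ratio at least 0.25 from 0. Krt8, the type II keratin of hepatocytes, read 0.10, 0.30, 0.07 and 0.43 on arrays 1 to 4. All 4 values lie above 0, with a mean of 0.22 ± 0.17 (SD, n = 4) and a limma adjusted p of 0.0716. Its call depended on the setting: with the regional offset taken off (the median of other probes within 5 Mb on each side) the mean was 0.40 (limma adjusted p = 0.0135), and in the authors' deposited log2 table it was 0.30 (limma adjusted p = 0.0305), whereas with normexp background correction it was 0.07 (limma adjusted p = 0.430). Krt18, its type I partner, read -0.14, -0.05, 0.26 and 0.13, a mean of 0.05 ± 0.18 (SD, n = 4). The Krt18 values straddle 0, the lower pair on slide 1 and the higher pair on slide 2, and its slide means were -0.09 and 0.20 (limma adjusted p = 0.477 between slides). With a correction for probe base composition Krt18 had a mean of 0.33 and passed the threshold (limma adjusted p = 0.0191), while with normexp and without replicate 3 its mean turned to -0.13 and -0.02.

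Krt7, a type II keratin of bile ducts, read -0.44, -0.47, -0.32 and -0.23, lower than the pool on all 4 arrays. Its mean was -0.37 ± 0.11 (SD, n = 4; limma adjusted p = 0.00861), and its 2 probes agreed within 0.04 in their means (-0.39 and -0.35). Relative to the regional offset it was -0.21 and no longer past the threshold (limma adjusted p = 0.0591). Krt19, the type I keratin of bile ducts, read -0.01, -0.17, 0.05 and 0.02, with a mean of -0.03 ± 0.10 (SD, n = 4; limma adjusted p = 0.766), and its sign turned relative to the regional offset (0.13), with the base-composition correction (0.09) and without replicate 2 (0.02).

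Set against the skin keratins of its own cluster, Krt8 was on the high side and Krt7 on the low side. The skin keratins are all numbered keratins of a cluster except Krt7, Krt8, Krt18, Krt19, Krt20, Krt23, Krt80 and Krt222. Their median was -0.10 ± 0.06 over 16 genes on chromosome 15 and -0.21 ± 0.09 over 21 genes on chromosome 11 (SD, n = 4). Krt8 exceeded that median on 4 of 4 arrays, by 0.33 ± 0.23, and stood above 14 of the 16 skin genes by its mean. Krt7 lay under it on 4 of 4 arrays, by -0.26 ± 0.15, with 12 of the 16 skin genes above it. Both differences reach the smallest two-sided p of an exact sign-flip permutation test over 4 arrays, 2 of 16 sign assignments, which cannot pass 0.05 (adjusted p = 0.25 over the 4 genes compared). Krt18 stood 0.16 ± 0.18 above and Krt19 0.18 ± 0.17 above their skin medians, each on 3 of 4 arrays (exact p = 0.25 for both), and with normexp background correction both differences were close to 0 (-0.0034 for Krt18 and -0.0030 for Krt19). Base composition moved the Krt18 difference to 0.40.

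**Figure D1:**
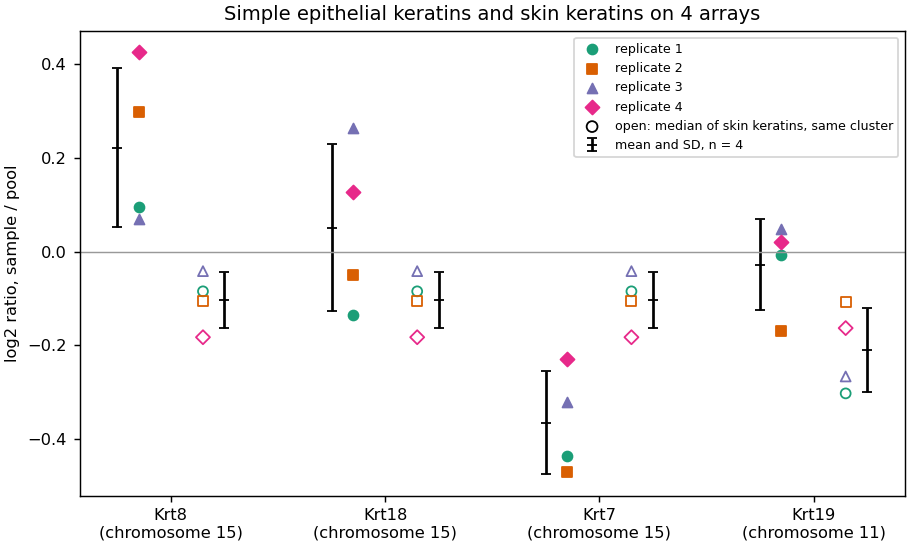
The log2 ratio of sample over pool is plotted for Krt8, Krt18, Krt7 and Krt19 (filled symbols, 1 per array) beside the median of the skin keratins of the same cluster (open symbols), with bars for the mean and SD over 4 arrays. All 4 Krt8 points sit above 0 and above their skin medians, all 4 Krt7 points sit below theirs, and the Krt18 and Krt19 points overlap with 0.

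Over the whole set, 31 of 72 genes passed, of which 11 lay above and 20 below the pool, while 41 did not. This 43.1% compares with 35.4% of all autosomal genes (16.1% higher and 19.3% lower). Of the 59 keratin genes with 1 probe, 28 were called (47.5%), beside 41.8% of all autosomal genes with 1 probe. Of the 13 keratin genes with more probes, 3 were called (23.1%), beside 31.9% of such autosomal genes fitted on their own. The median ratio of the keratin genes was -0.06 against -0.01 for all autosomal genes, and the SD between genes was 0.41 for keratin genes and 0.34 for all autosomal genes. Among genes with 1 probe these SDs were 0.44 and 0.41. A single sign on all 4 arrays was seen in 41 of 72 genes (56.9%), beside 54.5% of autosomal genes. The split between higher and lower calls depends on the surroundings: with the regional offset taken off, 18 were higher and 8 lower, against a background of 14.9% and 16.1%, and 19 of the 31 calls were kept with the same sign.

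**Figure D2:**
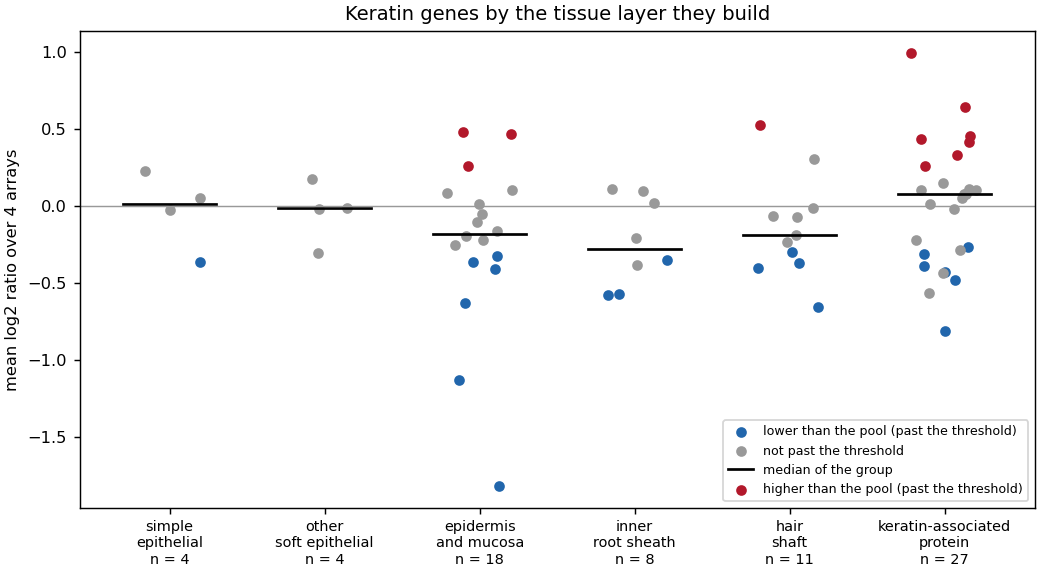
Each point is the mean log2 ratio of 1 gene over 4 arrays, grouped by the tissue layer its protein builds, in red where called higher and in blue where called lower, with a line at the group median. Group medians run from -0.28 for the inner root sheath to 0.08 for the keratin-associated proteins, and every group with more than 4 genes overlaps with every other.

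The members lie in 3 clusters, apart from Krtap5-3 on chromosome 7. Type I keratins share chromosome 11 with a block of Krtap genes (37 genes from chr11:99094497-100125060), type II keratins lie on chromosome 15 together with Krt18 (20 genes, chr15:101198227-101862290), and a block of 14 Krtap genes lies on chromosome 16 (chr16:88611623-89507991). Averaged over the 4 arrays, each cluster's median lay above that of the DNA around it by 0.03 to 0.06. No exact test over 4 arrays can pass 0.05. The difference was below 0 on array 3 for chromosome 11 (-0.024) and on array 4 for chromosome 15 (-0.026). The median of the chromosome 11 genes was -0.10 against -0.14 for 267 other probes within 2 Mb on each side, a difference of 0.03 ± 0.04 (SD, n = 4; exact sign-flip p = 0.25). On chromosome 15 the medians were -0.10 and -0.15, a difference of 0.05 ± 0.06 (SD, n = 4; exact p = 0.25), and on chromosome 16 they were 0.08 and 0.02, a difference of 0.06 ± 0.05 (SD, n = 4), the smallest exact p that 4 arrays allow. In the main setting the chromosome 16 difference was above 0 on 4 of 4 arrays and larger than its SD, and the other differences were smaller than theirs. After adjustment over these 3 comparisons each p was 0.25. With flanks of 5 Mb on each side the differences were 0.06 ± 0.02, 0.05 ± 0.05 and 0.09 ± 0.04 on chromosomes 11, 15 and 16 (SD, n = 4). Both clusters with a median below 0 thus sit in flanks whose median is below 0 as well, and the chromosome 16 block sits in flanks near 0. The difference for chromosome 11 was 0.08 with normexp and with dim probes removed, and 0.006 with the base-composition correction. That for chromosome 15 was 0.004 with normexp, 0.0005 with dim probes removed and 0.08 with the base-composition correction, and turned to -0.03 in the authors' deposited table. The chromosome 16 difference was 0.09 ± 0.03 with normexp, 0.06 ± 0.04 with dim probes removed and 0.11 ± 0.08 in the deposited table. It was smaller than its SD with the base-composition correction (0.06 ± 0.08), without replicate 1 (0.046 ± 0.049) and without replicate 2 (0.050 ± 0.055).

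Inside a cluster the genes did not share a level. The median difference between neighbouring genes was 0.37 on chromosomes 11 and 15 and 0.25 on chromosome 16. Neighbours were called in opposite directions in 3 of 36, 1 of 19 and 1 of 13 adjacent pairs, and in the same direction in 3, 1 and 1. Neighbouring genes outside the clusters were not compared, so these figures are not shown to be particular to keratins. Among all autosomal genes the SD between genes was 0.34 and 35.4% were called. On chromosome 15 the widest step was 0.92, between Krt5 and Krt71, whose probes were well above background on all arrays. On chromosomes 11 and 16 the widest steps involve the dim probes of Krt9 and Krtap13 and are not measured.

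**Figure D3:**
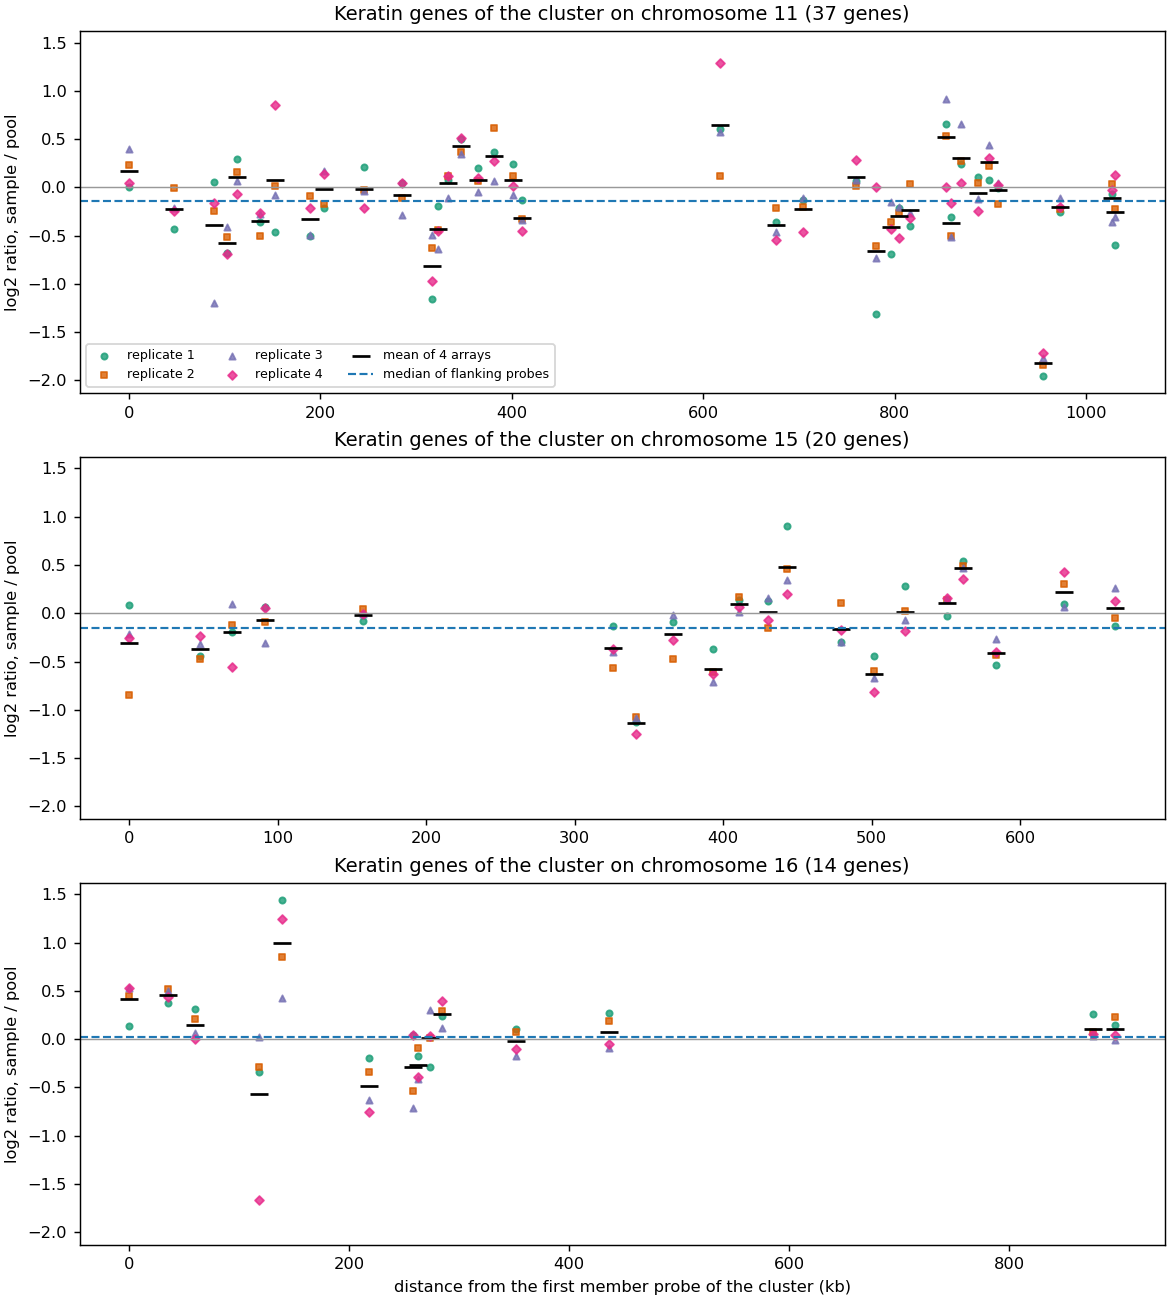
The 3 panels plot the log2 ratio of each gene on each of 4 arrays (symbols) and its mean (bar) against the distance in kb from the first keratin probe of the cluster, with a dashed line at the median of the flanking probes. Krt9 at the bottom of the chromosome 11 panel, Krt5 at the bottom of the chromosome 15 panel and Krtap13 at the top of the chromosome 16 panel stand out, of which only Krt5 was well above background in both channels on all arrays.

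The probes behind the outermost genes, and those of Krt79 and Krt10, whose 2 probes disagree, are printed here because each of these results rests on 1 or 2 oligonucleotides, in the same notation as above.
Krt5: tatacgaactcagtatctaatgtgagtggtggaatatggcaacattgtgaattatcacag
Krt9: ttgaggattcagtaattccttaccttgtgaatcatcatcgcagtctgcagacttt
Krtap13: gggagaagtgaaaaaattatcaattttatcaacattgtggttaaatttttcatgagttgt
Krt79, first probe: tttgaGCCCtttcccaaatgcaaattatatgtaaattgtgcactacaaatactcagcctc
Krt79, second probe: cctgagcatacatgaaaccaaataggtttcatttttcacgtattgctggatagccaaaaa
Krt10, first probe: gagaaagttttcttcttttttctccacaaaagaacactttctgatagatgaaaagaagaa
Krt10, second probe: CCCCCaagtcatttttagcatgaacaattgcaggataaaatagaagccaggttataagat
These lie at chr15:101539642-101539701 (Krt5), chr11:100049644-100049698 (Krt9), chr16:88751043-88751102 (Krtap13), chr15:101760033-101760092 and chr15:101764103-101764162 (Krt79), and chr11:99246637-99246696 and chr11:99248243-99248302 (Krt10).

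Among the keratins of the epidermis and mucosa, 3 of 18 lay above the pool, 6 lay below it and 9 did not pass. Their median was -0.18. Thus 9 of 18 were called, beside 35.4% of all autosomal genes and 41.8% of those with 1 probe, as 13 of the 18 are. The lower calls include Krt9 and Krt12, whose single probes were not well above background on every array. With normexp Krt12 was at -0.02 (limma adjusted p = 0.802). Relative to the regional offset Krt5, Krt9 and Krt77 stayed lower, while Krt6a, Krt12 and Krt78 lost the call. Krt5, the type II keratin of the basal layer of stratified epithelia, had the lowest ratio among keratin genes measured well above background: it read -1.12, -1.08, -1.08 and -1.25. The values lie within 0.18 of each other and its mean was -1.13 ± 0.08 (SD, n = 4; limma adjusted p = 0.000396). Its probe was well above background in both channels on every array, and the call held in every alternative that kept genes with 1 probe, with the mean at -0.97 relative to the regional offset and -1.86 in the authors' deposited table. Its neighbours did not share it: Krt6a, a keratin of wounded skin, was at -0.36 and Krt71, of the inner root sheath, at -0.21 with no call. Krt14, the type I partner of Krt5, read -0.25, -0.23, -0.11 and -0.21, a mean of -0.20 ± 0.06 (SD, n = 4); its limma adjusted p was 0.0449, but the size stayed under 0.25. With normexp Krt14 was at -0.35 and in the authors' deposited table at -0.37, and both passed the threshold, while relative to the regional offset it was at -0.05 (limma adjusted p = 0.591) and with the base-composition correction at -0.08 (limma adjusted p = 0.334).

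Krt9, the keratin of palm and sole skin, had the lowest ratio of the set, at -1.96, -1.84, -1.77 and -1.72, but its signal does not establish a loss. The sample channel was not well above background on any array, while the pool was on 3 of 4. With the sample set to the lowest signal that was well above background, the ratio was 0.37, on the other side of 0, so that no fold is given. With normexp the mean of Krt9 was -0.09 (limma adjusted p = 0.289), and in the authors' deposited table -1.13.

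Krt77, a keratin of the epidermis, read -0.44, -0.60, -0.67 and -0.81, and Krt78, a type II keratin, read -0.54, -0.43, -0.27 and -0.40. Both were below 0 on all arrays, with means of -0.63 ± 0.15 and -0.41 ± 0.11 (SD, n = 4; limma adjusted p = 0.00248 and 0.00608). The base-composition correction took Krt77 to -0.35, still past the threshold, and in the authors' deposited table it was -0.95. The same correction took Krt78 to -0.13 (limma adjusted p = 0.177), and normexp and the regional offset left it at -0.20 and -0.24, under the size limit. Krt6a had a mean of -0.36 ± 0.18 (SD, n = 4; limma adjusted p = 0.0165), with array 1 at -0.13 and the others between -0.56 and -0.37. Its call was lost relative to the regional offset (-0.20) and without replicate 2, 3 or 4 (-0.30, -0.35 and -0.36).

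Krt2, of the upper epidermis, was higher than the pool at 0.91, 0.46, 0.34 and 0.21, a mean of 0.48 ± 0.30 (SD, n = 4; limma adjusted p = 0.0207). The Krt2 mean was 0.32 with normexp, and without replicate 2 its limma adjusted p was 0.0594. Array 1 stands well above the others here. Krt15, also called higher in the main setting, had a mean of 0.26 ± 0.15 (SD, n = 4) and a limma adjusted p of 0.0378. It lost the call with normexp (0.07), with the base-composition correction (0.22) and with dim probes removed (0.24). The call of Krt15 was also lost in the authors' deposited table (0.25, limma adjusted p = 0.0812), and was kept relative to the regional offset (0.42). Krt79, of the hair canal, had a mean of 0.47 ± 0.08 (SD, n = 4; limma adjusted p = 0.00328), which averages a probe at 1.09 and a probe at -0.16, 4.07 kb apart. The probes of Krt79 did not overlap on any array, and the gene's mean describes neither of them. Krt10, the type I keratin of the suprabasal epidermis, also had probes with differing means, but not in 1 direction on every array. On array 1 its first probe lay below its second (-0.51 against -0.41), and on the other arrays above it. Its first probe read -0.51, 0.30, 0.83 and 1.77 and stayed dim in both channels on every array, while the second, well above background throughout, had a mean of -0.44. The gene's mean of 0.08 ± 0.56 (SD, n = 4) therefore became -0.46 once dim probes were left out (limma adjusted p = 0.0232 in that fit), a change of direction, and -0.18 without replicate 4. Krt1, its type II partner, was at -0.17 ± 0.19 (SD, n = 4) with no call, at -0.35 with a call in the authors' deposited table, at 0.0046 relative to the regional offset and at -0.04 with the base-composition correction.

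Krt4 and Krt13, the pair of the oesophagus and tongue, were at 0.10 ± 0.09 and -0.05 ± 0.16 (SD, n = 4), both without a call, and Krt4 passed the threshold relative to the regional offset (0.27) but was at -0.02 with normexp. Krt13 turned to 0.10 relative to the regional offset and to 0.01 without replicate 4. The Krt13 probe lies wholly inside the promoter window of Krt13 in RefSeq (GRCm38.p6). Krt17, of hair follicles and wounded skin, was at -0.11 ± 0.17 (SD, n = 4) and at 0.05 relative to the regional offset. Krt6b and Krt16 are not gene names among the probes analysed here.

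Filament partners were compared within each array, as the type II gene minus the type I gene, over 6 pairs. Since the pairs lie on different chromosomes, except Krt8 and Krt18, each difference also holds the offset between them. The Krt5 ratio was under the Krt14 ratio on every array, by -0.94 ± 0.09, and the Krt7 ratio under the Krt19 ratio on every array, by -0.34 ± 0.08. Krt6a minus Krt17 was -0.26 ± 0.27, also below 0 on 4 of 4 arrays. For these 3 pairs the exact sign-flip p was the smallest possible, and 0.25 after adjustment over the 6 pairs. Krt8 minus Krt18 (0.17 ± 0.25), Krt1 minus Krt10 (-0.25 ± 0.55) and Krt4 minus Krt13 (0.16 ± 0.23) changed sign between arrays, with exact p-values of 0.25, 0.625 and 0.375 (SD, n = 4 throughout).

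In the group of other soft epithelial keratins 0 of 4 genes passed the threshold, beside 35.4% of all autosomal genes. Krt20, of the gut lining, read -0.21, -0.18, 0.17 and 0.14, negative on slide 1 and positive on slide 2, with a mean of -0.02 ± 0.20 (SD, n = 4). Krt23 was at -0.02 ± 0.17 (SD, n = 4). Relative to the regional offset both were at 0.15, and each changed sign when some single replicate was left out. The remaining members of the group, Krt80 and Krt222, were at -0.31 and 0.17. Each passed the threshold in an alternative setting. Krt80 was lower with normexp (-0.28, limma adjusted p = 0.0314), and Krt222 was higher relative to the regional offset (0.33, limma adjusted p = 0.0241).

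Inner root sheath keratins, which line the growing hair, had 3 of 8 genes below the pool, none above it and 5 that did not pass, and the lowest group median (-0.28). The 37.5% called compares with 35.4% of all autosomal genes. The one-sided split depended on the setting. Relative to the regional offset Krt26 and Krt74 stayed lower (both at -0.41), while Krt28 lost the call (-0.18). In that setting Krt27 (0.28, limma adjusted p = 0.0387) and Krt72-ps (0.26, limma adjusted p = 0.0205) were called higher. Krt26 read -0.68, -0.52, -0.41 and -0.69, and Krt74 read -0.37, -0.61, -0.72 and -0.63. Both were negative on all arrays, with means of -0.57 ± 0.14 and -0.58 ± 0.15 (SD, n = 4; limma adjusted p = 0.00279 and 0.00303). They lie on different chromosomes, Krt26 in the type I and Krt74 in the type II cluster.

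The hair shaft keratins had 1 of 11 genes higher and 4 lower, with a median of -0.19. The 45.5% called compares with 35.4% of all autosomal genes and 41.8% of those with 1 probe, as 10 of these 11 are. Krt32 was the higher one, at 0.65, 0.53, 0.91 and 0.002, so that array 4 stands at 0 while the others do not. Its mean of 0.52 ± 0.38 (SD, n = 4; limma adjusted p = 0.0278) was no longer past the threshold without replicate 1, 2 or 3 (0.48, 0.52 and 0.39), nor in the authors' deposited table (0.50), and with normexp it was 0.32. Krt36, at 0.30 without a call (limma adjusted p = 0.0594), passed as higher relative to the regional offset (0.46), with dim probes removed (0.28) and in the deposited table (0.40). With normexp Krt36 was at 0.16 without a call. Krt31, at -0.24 without a call, passed as lower with dim probes removed (-0.25) and in the deposited table (-0.30). The 4 lower genes, Krt33a, Krt33b, Krt34 and Krt35, had means from -0.66 to -0.30. Relative to the regional offset all 4 lost the call, at -0.50, -0.25, -0.14 and -0.22. With normexp Krt33a (-0.16) and Krt33b (-0.10) lost it as well, while Krt34 and Krt35 kept it. The Krt33b sample channel was well above background on 3 arrays. Of all 31 calls, 30 had a single sign on all arrays, and the exception is among these 4, Krt33a, singled out after its values were seen, with array 4 at 0.0064 and a sample channel well above background on 1 array only.

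Krt85, a hair shaft keratin, is the gene name of 10 probes spread over 164 kb, and its mean of -0.01 ± 0.05 (SD, n = 4) hides a range of 1.05 between probes. The lowest, the fourth in order, had a mean of -0.47 ± 0.13 and was negative on all arrays, and the last pair, at 118 kb and 164 kb from the first, had means of 0.59 ± 0.20 and 0.49 ± 0.23 and were positive on all arrays (SD, n = 4). In the RefSeq order of assembly GRCm38 the genes Krt84, Krt82, Krt90, Krt75 and Krt6b stand between Krt83 and Krt6a, and none of these is a gene name among the probes here. Which gene each of the 10 probes reads was therefore not settled, and the mean of this name is not the level of 1 gene.

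**Figure D4:**
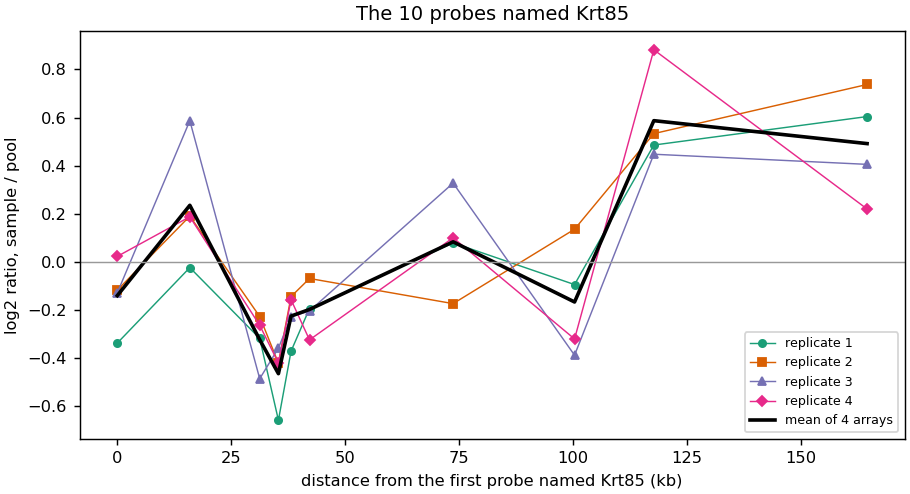
The log2 ratio of sample over pool of each of the 10 probes named Krt85 is plotted against the distance in kb from the first of them, with a thin line per array and a thick line for the mean of 4 arrays. The arrays follow each other: the fourth probe is below 0 and the last pair is above 0 on all 4.

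The keratin-associated proteins had 7 of 27 genes above the pool, 6 below it and 14 that did not pass, and a median of 0.08. The 48.1% called compares with 41.8% of autosomal genes with 1 probe. On chromosome 11, 3 of 12 were higher and 4 lower, and on chromosome 16, 4 of 14 were higher and 2 lower. The high-sulphur gene Krtap1-5 read 0.50, 0.37, 0.35 and 0.51, a mean of 0.43 ± 0.09 (SD, n = 4; limma adjusted p = 0.00422). Krtap26-1 read 0.37, 0.52, 0.50 and 0.43, a mean of 0.46 ± 0.07 (SD, n = 4; limma adjusted p = 0.0033). With normexp Krtap1-5 and Krtap26-1 were both at 0.26, just past the size limit, and with the base-composition correction Krtap26-1 was at 0.74. Krtap24-1, beside Krtap26-1, was at 0.41 ± 0.19 (SD, n = 4; limma adjusted p = 0.0116) and at 0.24 with normexp, under the size limit.

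Krtap13 had the highest ratio of the set, at 1.45, 0.85, 0.43 and 1.25, a mean of 0.99 ± 0.45 (SD, n = 4; limma adjusted p = 0.00539), but the signal behind it was weak. The pool was not well above background on any array and the sample was on only 1. No fold is given, since both channels were mostly at background, and with normexp the mean was 0.65. Its neighbour Krtap13-1, 21.2 kb away, was at -0.57 ± 0.75 (SD, n = 4) with no call, its sample channel well above background on 1 array. Krtap4-16 had a mean of 0.64 ± 0.48 (SD, n = 4; limma adjusted p = 0.0268), with both channels well above background on 2 arrays only, and its call was lost without replicate 1 or 3 (0.66 and 0.67).

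Calls close to the size limit were the least stable. Krtap2-4 (0.33 ± 0.23) and Krtap8-2 (0.26 ± 0.12; SD, n = 4 for both) were past the threshold in the main setting, with limma adjusted p-values of 0.036 and 0.0283, and each lost the call under several alternatives. Krtap2-4 fell below it with normexp (0.17), with the base-composition correction (0.29), with slide means as samples (0.33) and without replicate 1, 2 or 4 (0.32, 0.23 and 0.35). Krtap8-2 fell below it in 8 alternatives, with values from 0.21 to 0.27.

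Lower Krtap genes were led by Krtap3-3, at -1.16, -0.63, -0.49 and -0.97, a mean of -0.81 ± 0.31 (SD, n = 4; limma adjusted p = 0.00385) with the sample channel well above background on 3 arrays, and -0.43 with normexp. Its neighbour Krtap3-2 was at -0.43 ± 0.18 (SD, n = 4; limma adjusted p = 0.00982) and, relative to the regional offset, at -0.27 without a call, and Krtap3-1 next to both was at 0.05 ± 0.11 (SD, n = 4). On chromosome 16, Krtap15 read -0.20, -0.34, -0.63 and -0.75, lower on slide 2 (-0.69) than on slide 1 (-0.27), with a mean of -0.48 ± 0.26 (SD, n = 4; limma adjusted p = 0.0135). It lost the call with normexp (-0.18) and without replicate 3 (-0.43). Krtap16-1, at -0.27 ± 0.16 (SD, n = 4; limma adjusted p = 0.0389), was at -0.04 with the base-composition correction and at -0.11 with normexp, and lost the call in 7 alternatives in all. Krtap5-3, alone on chromosome 7, read -1.80, -0.22, 0.08 and 0.19, so that its mean of -0.44 ± 0.93 (SD, n = 4) rests on array 1, where the other three arrays lie near 0.

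Slides were compared because arrays 1 and 2 share a slide and arrays 3 and 4 share the other. No keratin gene differed between slides at a limma adjusted p under 0.05 (background 0%), and 3 of 72 had an unadjusted p under 0.05, namely Krtap15, Krt20 and Krtap16-8. With normexp and with dim probes removed the count was also 0, against backgrounds of 0.0196% and 0.016%. Krt5 was at -1.10 on slide 1 and -1.17 on slide 2, and Krt7 at -0.46 and -0.28. Each slide holds different samples, so slide and sample cannot be told apart.

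Base composition of the probes moved with the ratios. Across the 97 keratin probes the Pearson correlation between the share of G and C bases and the mean ratio was -0.20, and across all 52385 autosomal probes it was -0.13; probes share arrays and DNA and are not independent replicates. The median ratio of all autosomal probes fell from 0.06 in the bin of 30% to 32% to -0.28 in the bin of 44% and more. With each array corrected for it, 29 keratin genes were called, 10 higher and 19 lower against a background of 15.9% and 17%, and 26 of the 31 calls were kept.

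**Figure D5:**
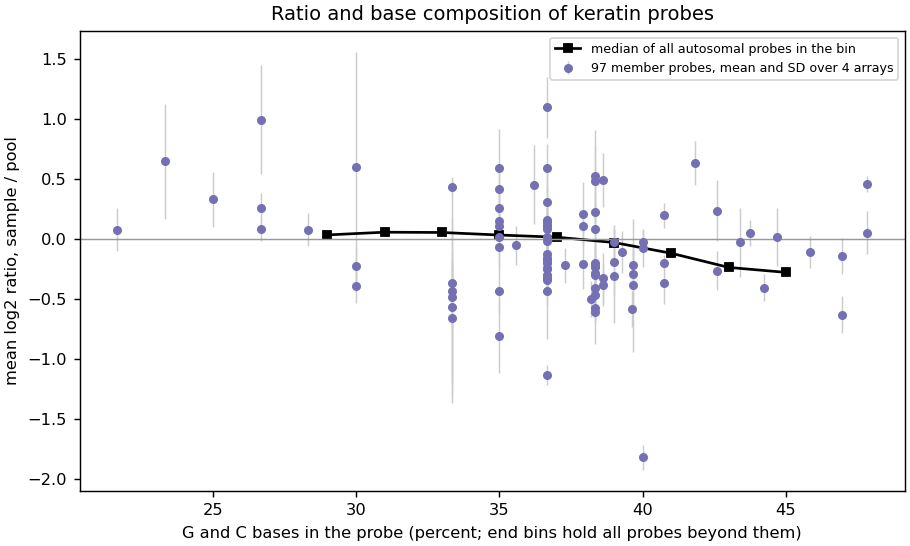
The mean log2 ratio of each of the 97 keratin probes (points, with the SD over 4 arrays) is plotted against its share of G and C bases in percent, with squares for the median of all autosomal probes in bins of 2 percentage points. The squares fall from 0.06 to -0.28 toward the right, and single keratin probes lie on both sides of the line of squares at most compositions.

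Genes that work with keratins were read from lists outside the set, and their counts stand beside the 16.1% of autosomal genes called higher and the 19.3% called lower. Of 12 genes that anchor keratin filaments to desmosomes and hemidesmosomes, 2 lay above the pool, 6 below it and 4 did not pass, and the median was -0.24. Plec, the cross-linker plectin, was at -0.54 ± 0.05, and the hemidesmosome integrin subunits Itgb4 and Itga6 were at -1.39 ± 0.22 and 0.48 ± 0.21 (SD, n = 4; limma adjusted p = 0.00201, 0.000624 and 0.00895). Of 15 other intermediate filament genes, 1 was higher (Bfsp2 of the lens, 0.57 ± 0.21) and 2 were lower (Nefh of neurons, -0.72 ± 0.18, and the lamin Lmnb2, -0.57 ± 0.22), and 12 were not past the threshold. Of 15 measured genes of the cornified envelope and hair follicle none was higher and 3 were lower, with a median of -0.02. These were S100a3 (-0.59 ± 0.29), Lce1a1 (-0.48 ± 0.32) and Cnfn (-0.31 ± 0.04), with SD and n = 4 for each. Well above background on every array were 0 of 1 probe for Lce1a1, 1 of 2 for Plec and for Lmnb2, and 2 of 3 for Itgb4.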

How the data were processed

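Per the file headers, the deposited intensity of each spot was background-subtracted and dye-normalised by Agilent's Feature Extraction software, version 10.10.1.1, with probes placed on mouse build mm9. The deposited log10 ratio column was used as a check only, and the authors' deposited log2 table as an alternative. That table tracked the same array's ratios (r of 0.91 to 0.92, slopes of 1.00 to 1.09), which gives its scale and direction, its columns have medians of -0.04, 0.03, 0.05 and 0.01, and its normalisation and centring stay unknown.

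Log2 of processed Cy5 over Cy3 was taken, without control spots or flagged outliers; replicate spots were averaged by probe, arrays were centred on the autosomal median and probes were averaged per gene, with no loess or quantile step. Dye direction is from the labels, and no dyes were swapped. Genes were tested against 0 with limma 3.58.1 in R 4.3.3 and Benjamini-Hochberg adjustment over 20445 genes, at an adjusted p under 0.05 and a size of at least 0.25. On data simulated for this comparison over 20445 genes, 20% of genes changed by 0.35, 66% by 0.5 and 100% by 1 were recovered, with 16 false calls. Only 50 genes were changed at each size, while 35.4% of all autosomal genes were called in the real data. The adjustment was therefore stricter in the simulation, and its recovery rates do not carry over to these arrays. Array medians and single differences had two-sided exact sign-flip permutation tests, whose smallest p, 2 of 16 sign assignments, is above 0.05.

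The members and lists were chosen with earlier results of these data known. Named genes were the liver and other simple keratins, the filament pairs, up to 4 highest and 4 lowest called genes of each cluster with 1 sign on all arrays, genes with a channel dim on every array, genes whose probes differ by over 1, and up to 3 called genes of each other list. Gene names come from the array design; of these, 65 are RefSeq symbols (GRCm38), 6 are synonyms and 1, Krt85, had no match. The orientation of the probe letters was checked on RefSeq promoter windows, where the first 25 bases matched for 252 probes as written, for 187 as the reverse complement and for 0 simply reversed.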

Additional observations from a re-analysis of the deposited data

Results flagged for a closer look

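Krt4 was set apart by a single array. Replicate 1 read -0.0279, while the other three arrays lay between 0.14 and 0.15, and the gap took 0.92 of the whole range. It was 1 of 41 values tested in this way, and chance alone sets apart about 1 group in 20.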

How the results depend on the processing

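Against 31 called keratin genes (11 higher, 20 lower), leaving out each replicate in turn gave 21 to 24 (6 to 9 higher, 13 to 16 lower). Higher calls numbered 7 with normexp (22 calls in all) and 18 relative to the regional offset, where 8 were lower. A size limit of 0.5 left 10 (3 higher, 7 lower), and genes with at least 2 probes gave 3 of 13 (1 higher, 2 lower). With dim probes removed 25 of the 60 genes left were called (8 higher, 17 lower), against a background of 18.3% higher and 21.1% lower. The deposited table, the array mode as centre, slide means and a random slide block gave 26 to 32 of 72. A base-composition correction chosen after seeing the data gave 29 of 72. The difference between cluster and flank moved to 0.0775 with normexp and 0.0831 with dim probes removed on chromosome 11, and to -0.0335 on chromosome 15 in the deposited table; with flanks of 5 Mb it was 0.0591 on chromosome 11 and 0.0870 on chromosome 16. Against skin keratins, Krt18 moved to 0.40 with the base-composition correction and Krt19 to -0.0030 with normexp. Krt10 reversed to -0.46 without dim probes, where 1 of its 2 probes is left; the causes of the other shifts were not tested. No paired analysis was possible because there is only 1 group. Of the values of single named genes, 410 kept direction and side of the threshold, 41 lost the call, 7 gained it and 20 moved. In the simulation, where far fewer genes changed than were called here, changes of 0.5 and less were recovered in part only. Of the 72 genes 59 had 1 probe, 4 arrays were used, and 13 of 97 probes were dim on at least 1 array.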
